A study of Mus musculus with 10 samples.

Results

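Pcsk1n and Iapp encode precursors of peptides that are stored in the insulin granules of pancreatic beta-cells. Both were picked by name, with earlier results of these data known, as 2 of the 230 genes in the deposited table. Cultures of MIN6N8 cells, a mouse insulinoma line kept as a beta-cell model, received PBS (n = 5 libraries) or 100 ng/mL IL-22 (n = 5 libraries) for 4 h. As given for the samples, the cells of both groups were maintained in 22 mM glucose and moved to 5.5 mM glucose. The study's methods describe a higher maintenance glucose and a move made ahead of the experiment. The dose is that of the sample labels, and the study's methods describe a lower dose. All libraries come from the same tumour line and not from islets, and nothing states which cultures were grown or harvested together. The p-values therefore measure the spread between these libraries, which may be technical.

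Pcsk1n encodes proSAAS, a granin-like protein of neuroendocrine granules. The C-terminal part of proSAAS carries a short peptide that inhibits prohormone convertase 1/3, the protease that makes the first cuts in proinsulin, and the remainder is cut into several small neuropeptides. Iapp encodes the precursor of islet amyloid polypeptide, or amylin, which beta-cells release together with insulin and which slows gastric emptying and promotes satiety. Pro-amylin is cut by the same family of convertases that cut proinsulin, after pairs of basic residues. Human amylin forms islet amyloid in type 2 diabetes, whereas the mouse peptide does not. IL-22 is a cytokine that signals through a receptor of IL-22RA1 and IL-10RB, mainly to STAT3.

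The convertase sites that tie the 2 genes together can be read in their coding sequences, and for that reason the stretch around each peptide is shown. Both are in exon 3 on the plus strand of GRCm38, read from the GENCODE M21 transcripts, and lie inside the coding sequence. In Pcsk1n, capitals mark the 6 codons that end in the sole Lys-Arg pair of the precursor, which correspond to the inhibitory hexapeptide. In Iapp, capitals mark the Lys-Arg codon pairs on either side of amylin.
Pcsk1n, chrX:7923008-7923079: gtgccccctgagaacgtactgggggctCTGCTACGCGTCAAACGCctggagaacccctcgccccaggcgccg
Iapp, chr6:142303328-142303453: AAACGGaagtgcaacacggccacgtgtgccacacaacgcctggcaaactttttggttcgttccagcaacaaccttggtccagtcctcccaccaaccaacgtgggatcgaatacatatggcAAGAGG
The Pcsk1n stretch spans codons 228 to 251 of a precursor of 258 residues, with the Lys-Arg pair starting at codon 241. The Iapp stretch spans codons 36 to 77 of a precursor of 93 residues. It holds the 37 codons of amylin, then a glycine codon of the kind used for C-terminal amidation. The proSAAS precursor has 5 pairs of adjacent basic residues, of which 1 is Lys-Arg, and pro-amylin has 3, of which 2 are Lys-Arg.

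Pcsk1n (ENSMUSG00000039278.10) lies at chrX:7919822-7924410 on the plus strand and has 1 annotated transcript of 3 exons and 2193 nt, of which 774 nt are coding. Its last 135 nt lie over an exon of Eras on the opposite strand. Iapp (ENSMUSG00000041681.2) lies at chr6:142298423-142303961 on the plus strand, with 2 annotated transcripts, the longest of 3 exons and 839 nt, of which 279 nt are coding. It lies entirely within Slco1a5, which is on the opposite strand, and the exons of the 2 genes share 0 nt. The libraries were stranded, but the strand setting of the counting is not given in the sources used here, so for the 135 nt shared with Eras reads of either gene cannot be told apart.

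Each of the 230 listed genes has a false discovery rate under 0.05 in the authors' own comparison of IL-22 with PBS, so the listed genes, Pcsk1n and Iapp included, were selected by the comparison tested here. Libraries held 23685882 to 35785875 counted reads, and these totals overlapped between PBS and IL-22 (p = 0.492, two-sided exact permutation test). The listed genes took 2.87% to 3.11% of them. Of 5 genes listed as a check of STAT3 signalling 3 are in the table, and Socs3 and Stat3 rose, by 0.48 ± 0.0726 and 0.28 ± 0.0325 (log2 fold change ± SE). With TMM factors, a scaling over the listed genes, Socs3 (0.28) passed and Stat3 (0.07, adjusted p = 0.151) did not. Bcl3, with 0.33 ± 0.119, did not pass the threshold used here, an adjusted p of 0.01 in edgeR's quasi-likelihood test with Benjamini-Hochberg adjustment over the listed genes (adjusted p = 0.0148). It passed in limma-voom (adjusted p = 0.0075) and was at 0.04 in the fit with the GC index described further on. Of 12 beta-cell markers 5 are in the table, namely Iapp, Pdx1, Mafa, Nkx6-1 and Slc2a2. Pdx1, Mafa and Nkx6-1 were called higher, as were 81.3% of the listed genes. Slc2a2, the glucose transporter GLUT2, was called lower (log2 -0.17 ± 0.0442, adjusted p = 0.0033), as were 13.5% of them. Slc2a2 was at -0.38 with TMM factors and at -0.14 with the GC index (edgeR, adjusted p = 0.125). In the fit with the GC index 0 of these markers were called higher and 0 lower. Of 8 markers of other islet cells and 11 of exocrine, stromal and immune cells 0 are in the table. Markers that the table leaves out were not analysed here, and the purity of the cultures was not checked.

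Pcsk1n was higher in the IL-22 libraries than in the PBS libraries. In the 5 PBS libraries, numbers 1 to 5 as labelled, Pcsk1n was measured at 91.0, 98.0, 150, 120 and 212 CPM (reads of the gene per 1000000 counted reads of the library). In the 5 IL-22 libraries it was measured at 233, 233, 266, 247 and 263 CPM. All IL-22 libraries lay above the highest PBS library, PBS 5, which stood closest to them, and PBS 1 and PBS 2 were the lowest. The mean was 134 ± 49.1 CPM with PBS and 248 ± 15.9 CPM with IL-22 (SD, n = 5 each). The fold change was 1.85 (95% interval 1.45 to 2.37), or 0.89 ± 0.166 on the log2 scale (± SE), with an adjusted p of 0.00059 in edgeR's quasi-likelihood test. An exact permutation test of mean log2(CPM + 1) gave a difference of 0.95 and p = 0.00794, the smallest that 5 libraries against 5 can give (two-sided). These are shares of the library's RNA, and more cells expressing the gene cannot be told apart from more transcript per cell.

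By library totals, the call itself did not set Pcsk1n apart in a table selected for this contrast. Of the 230 listed genes 81.3% were called higher at the same threshold, and in 46.5% all IL-22 libraries lay above all PBS libraries. The size of the difference was high for an abundant transcript. Pcsk1n ranked 13 of 230 by log2 fold change. Among the 64 listed genes with a PBS mean of at least 100 CPM it ranked 1, and the next was Rgs4, a regulator of G-protein signalling, at 0.34. That order did not hold with the GC index, described further on, as covariate, where Pcsk1n was at 0.21 and Rgs4 at 0.35. The median log2 fold change of the listed genes was 0.21. With TMM factors, which bring that median to 0.0025, the Pcsk1n log2 fold change was 0.70 ± 0.141 (± SE, adjusted p = 0.00075). Under those factors 18 of the 230 genes were called higher, Pcsk1n among them. With the 21951 annotated protein-coding genes as the number of tests in place of the listed ones, the adjusted p of Pcsk1n was 0.0559, which did not pass.

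Iapp was the most abundant transcript of the table and differed little between the groups. In the PBS libraries, in the same order, Iapp was measured at 9121, 8557, 9036, 8901 and 9025 CPM. In the IL-22 libraries it was measured at 8859, 8339, 8833, 8072 and 8436 CPM. The groups overlapped, since IL-22 1 and IL-22 3 lay above PBS 2, although all 5 IL-22 libraries lay below the PBS median of 9025 CPM. The mean was 8928 ± 222 CPM with PBS and 8508 ± 336 CPM with IL-22 (SD, n = 5 each). The difference was -4.71% (95% interval -8.50% to -0.761%), or -0.07 ± 0.0276 on the log2 scale (± SE). It did not pass the threshold (edgeR, adjusted p = 0.0230), and the exact permutation test gave p = 0.0556 (two-sided). Called lower were 13.5% of the listed genes, and Iapp ranked 228 of 230 by p-value.

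Scaled with TMM factors, the Iapp log2 difference was -0.28 ± 0.0444 (± SE, adjusted p = 8.3e-05). With DESeq2's size factors over the listed genes it was -0.27 ± 0.0432 (adjusted p = 9.7e-09). Both scalings assume that the listed genes are centred on no change, whereas most were higher by library totals. The sign was negative in each of these fits, and the size depended on which genes were taken as the centre.

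**Figure D1:**
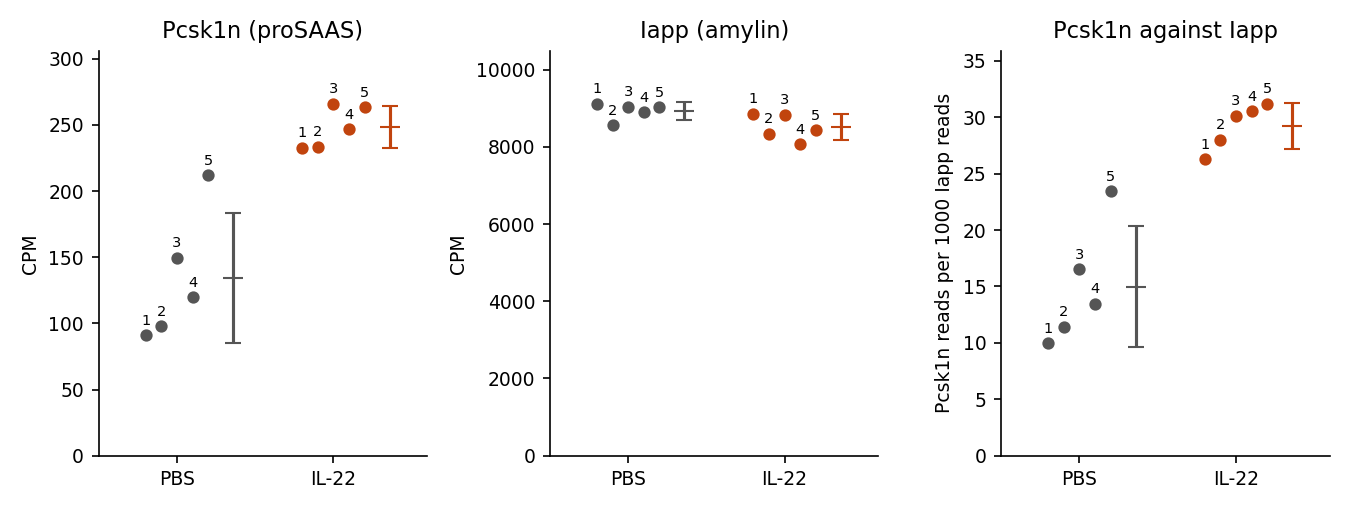
Values of Pcsk1n in CPM (left), Iapp in CPM (middle) and Pcsk1n reads per 1000 Iapp reads (right) in each library, with the library number as labelled beside each point and the mean ± SD of each group (n = 5) to its right. Pcsk1n spans 91.0 to 212 CPM with PBS and 233 to 266 CPM with IL-22 without overlap, whereas the Iapp values of 8072 to 9121 CPM overlap between the groups.

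Per kilobase of transcript, the scale on which levels of different genes can be set side by side, Iapp stood far above Pcsk1n. Iapp had 10641 ± 264 CPM per kb with PBS and 10140 ± 401 with IL-22, and Pcsk1n had 61.1 ± 22.4 and 113 ± 7.23 CPM per kb (SD, n = 5 each). The level of Iapp over that of Pcsk1n, per kb, was 262, 228, 158, 194 and 111 in PBS libraries 1 to 5. It was 99.5, 93.4, 86.8, 85.6 and 83.7 in IL-22 libraries 1 to 5, each below the lowest PBS value. Iapp took 0.807% to 0.912% of all counted reads of a library, and 26.6% to 31.5% of the reads of the listed genes.

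The 2 genes were also set against each other within each library, where the library total cancels. There were 9.98, 11.5, 16.5, 13.5 and 23.5 Pcsk1n reads per 1000 Iapp reads in PBS libraries 1 to 5. In IL-22 libraries 1 to 5 there were 26.3, 28.0, 30.1, 30.6 and 31.2. The groups did not overlap, and PBS 5 again lay nearest to the IL-22 libraries. The log2 ratio was higher with IL-22 by 1.03 (exact permutation test, two-sided, p = 0.00794). Since Iapp differed little between the groups, the ratio largely repeats the Pcsk1n difference. In absolute CPM the order was the other way round, with a mean difference of 114 CPM for Pcsk1n and -420 CPM for Iapp.

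Pcsk1n varied widely among the PBS libraries and Iapp did not. The coefficient of variation of Pcsk1n was 36.6% with PBS and 6.38% with IL-22, where the counting error alone would give 1.59% with PBS. It was the widest PBS spread among the 64 genes with a PBS mean of at least 100 CPM, the next being Dlk1 with 10.7%. Of all listed genes, 8 were wider, and their PBS means were at most 2.36 CPM. Iapp varied by 2.48% with PBS and 3.95% with IL-22, ranked 215 of 230 by its PBS spread. Each library held at least 2321 reads of Pcsk1n.

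The Pcsk1n values of the PBS libraries moved with an index of base composition. For each library, a GC index was taken as the slope of the log2 CPM deviations of the 228 other listed genes on the GC content of their transcripts, so that a positive index marks a library with relatively more reads of GC-rich genes. It was -0.139, -0.127, -0.0336, -0.0729 and 0.0575 in PBS libraries 1 to 5, per 10 percentage points of GC. It was 0.0395, 0.0674, 0.0633, 0.0862 and 0.0582 in IL-22 libraries 1 to 5. The index was itself higher with IL-22, by 0.126 (exact permutation test, two-sided, p = 0.0159), and PBS 5 lay among the IL-22 libraries. Since the genes behind the index were selected by this same contrast, this p cannot tell base composition apart from the treatment. The PBS libraries had the same order by index as by Pcsk1n, namely 1, 2, 4, 3, 5 from lowest to highest. The IL-22 libraries, which spanned narrower ranges of both, had different orders, 1, 5, 3, 2, 4 by index and 1, 2, 4, 5, 3 by Pcsk1n. Within groups, log2 Pcsk1n differed by 0.60 for each 0.1 of the index, and log2 Iapp by 0.0028. The Pcsk1n transcript, with 57.3% GC, was close to the median of the listed genes (56.8%, range 37.8% to 72.8%), and the Iapp transcript had 40.5%.

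With the GC index as a covariate, the Pcsk1n difference was 0.21 ± 0.0664 (log2 fold change ± SE) and did not pass the threshold (edgeR, adjusted p = 0.0261). With the index centred within each group, a fit added after seeing the data, it was 0.96 ± 0.0427 (adjusted p = 4.0e-15). Centring takes out the spread among replicates and leaves the difference between groups whole, so this p cannot part the index from the treatment. The index and the treatment differ between the same libraries, so that their parts in the Pcsk1n difference cannot be told apart. For Iapp the 2 fits gave -0.07 ± 0.0520 and -0.07 ± 0.0332.

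**Figure D2:**
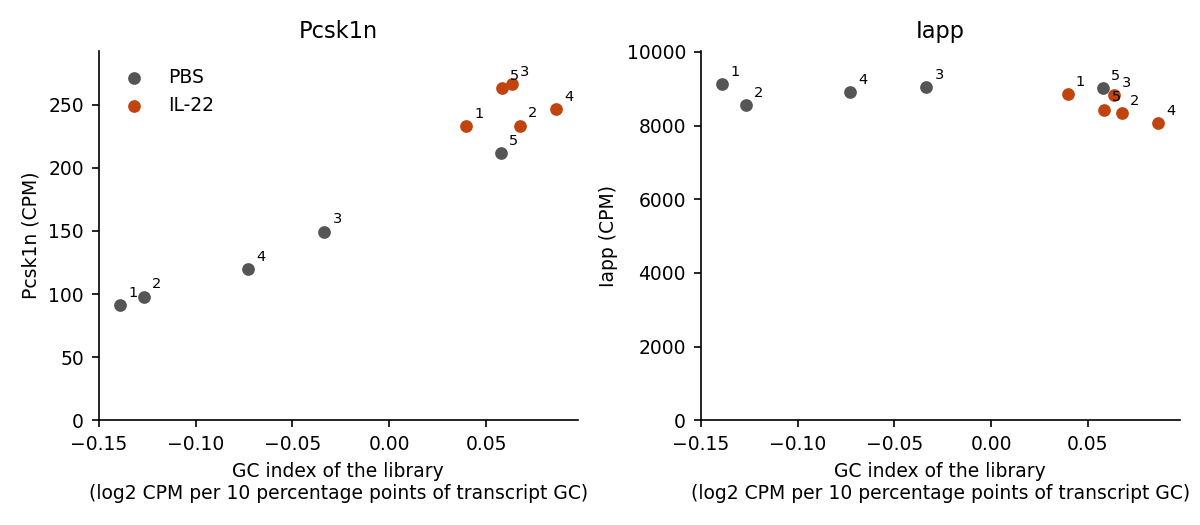
Pcsk1n (left) and Iapp (right) in CPM against the GC index of each library, in log2 CPM per 10 percentage points of transcript GC, with PBS libraries in grey, IL-22 libraries in orange and the library number beside each point. The PBS libraries climb from 91.0 to 212 CPM of Pcsk1n as the index goes from -0.139 to 0.0575, and Iapp stays between 8072 and 9121 CPM across the same range.

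Other cargo and processing genes of the granule were looked up from a list of 36, of which 2 are in the table. Both rose, where 81.3% of the listed genes did. In both, all IL-22 libraries lay above all PBS libraries, as in 46.5% of the listed genes. Of the 2, 1 passed with TMM factors, with DESeq2's size factors or with the GC index. In those fits 18, 30 and 19 of the 230 listed genes were called higher. Cartpt encodes the precursor of CART, a peptide made by neurons and some islet cells. It was measured at 8.86, 8.99, 9.34, 7.50 and 7.91 CPM with PBS and at 15.3, 11.5, 13.4, 12.0 and 12.6 CPM with IL-22, without overlap. Its log2 fold change was 0.61 ± 0.101 (± SE, adjusted p = 0.00027), and 0.74 ± 0.144 with the GC index as covariate (adjusted p = 0.00090). Vgf encodes a granin-family precursor of secreted peptides. It was measured at 132, 150, 158, 144 and 168 CPM with PBS and at 184, 183, 186, 178 and 179 CPM with IL-22, again without overlap. Its log2 fold change was 0.28 ± 0.0513 (± SE, adjusted p = 0.00059), and 0.11 ± 0.0525 with the GC index (adjusted p = 0.137). The insulin genes, the convertases and the chromogranins were not analysed here.

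Of 34 genes of granule traffic and exocytosis 2 are in the table. Rgs4 rose by 0.34 ± 0.0278 (log2 fold change ± SE, adjusted p = 4.5e-07), from 272 ± 4.44 to 344 ± 8.63 CPM (SD, n = 5 each). Sytl4, which encodes granuphilin, a Rab27a effector that docks insulin granules, fell by 0.12 on the log2 scale (SE 0.0308, adjusted p = 0.0031), from 279 ± 9.49 to 257 ± 5.62 CPM, and its difference was -0.08 with the GC index (adjusted p = 0.189). Of 7 receptor genes for amylin and the proSAAS peptides 0 are in the table.

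Of 15 transcription factors tied to the Iapp or insulin promoter 4 are in the table, and all 4 rose by library totals, where 81.3% of the listed genes did. Their median log2 fold change was 0.21, which equals the median of the listed genes to 2 decimals. Calls numbered 2 of the 4 without PBS 2, IL-22 3 or IL-22 5, and 3 without PBS 1, PBS 4 or IL-22 4. Mafa, a beta-cell activator of insulin transcription, rose by 0.58 ± 0.0945 (log2 ± SE). All IL-22 libraries lay above all PBS libraries for Mafa, as for 46.5% of the listed genes. Nkx6-1, needed for beta-cell identity, rose by 0.26 ± 0.0719. Pdx1 and Nkx2-2 rose by 0.16 ± 0.0432 and 0.17 ± 0.0527 by library totals, but their differences were -0.04 and -0.03 with TMM factors and -0.03 and -0.02 with DESeq2's size factors. Under TMM factors Mafa (0.39), Cartpt (0.40) and Sytl4 (-0.33) passed the threshold, and Vgf (0.07), Rgs4 (0.13) and Nkx6-1 (0.05) did not. Fitted with the GC index, 0 of these factors passed the threshold.

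**Figure D3:**
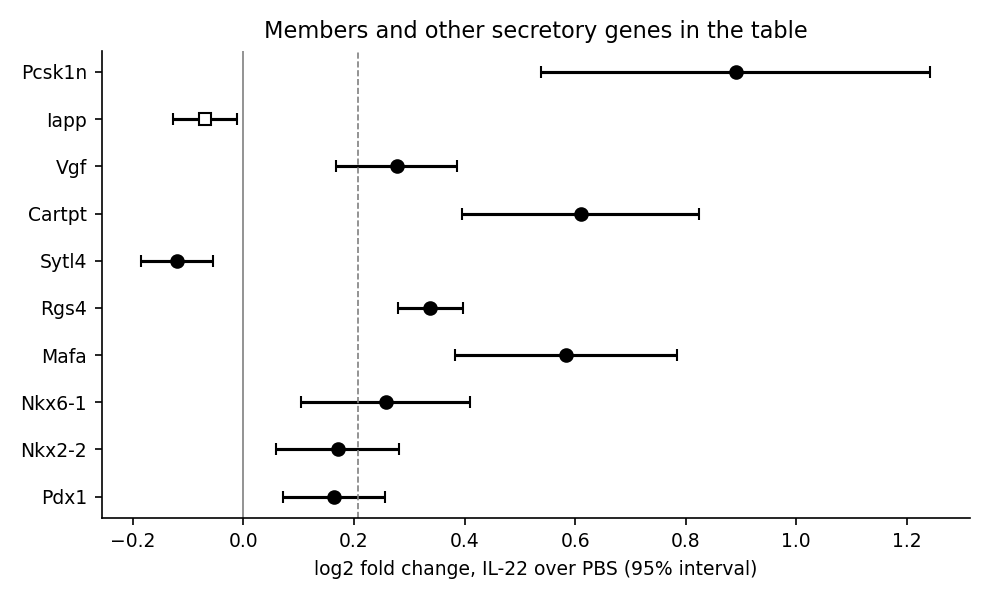
Log2 fold change with IL-22 relative to PBS, with its 95% interval from edgeR, for Pcsk1n, Iapp and the listed genes of granule cargo, granule traffic and beta-cell transcription, with filled circles for adjusted p under 0.01, an open square for Iapp, a solid line at 0 and a dashed line at the listed median of 0.21. Pcsk1n has the largest estimate of these genes and the widest interval, and Iapp and Sytl4 are the 2 below 0.

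The genes most like each member over the 10 libraries were found by Pearson correlation of log2(CPM + 1), as a description, since the libraries share the treatment and the GC index. For Pcsk1n these were Jund (r = 0.988), an AP-1 transcription factor, Mafa (0.984), 2310036O22Rik (0.979), Zfp865 (0.979) and C1qtnf4 (0.974), and 71 genes had r above 0.9. With group means taken out, Jund (0.965), Mafa (0.948), 2310036O22Rik (0.945), Zfp865 (0.928) and Bola1 (0.918) came first, and 13 genes had r above 0.9. For Iapp these were Akr1c19 (0.889), Tvp23b (0.863), Tmem27 (0.857), Chic1 (0.852) and Slc16a12 (0.832), and with group means taken out Slc16a12 led with 0.926. The 5 genes like Iapp had transcripts with 37.8% to 44.1% GC, and those like Pcsk1n had 57.0% to 70.7%. Between Pcsk1n and Iapp r was -0.446, and 0.193 with group means taken out.

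**Figure D4:**
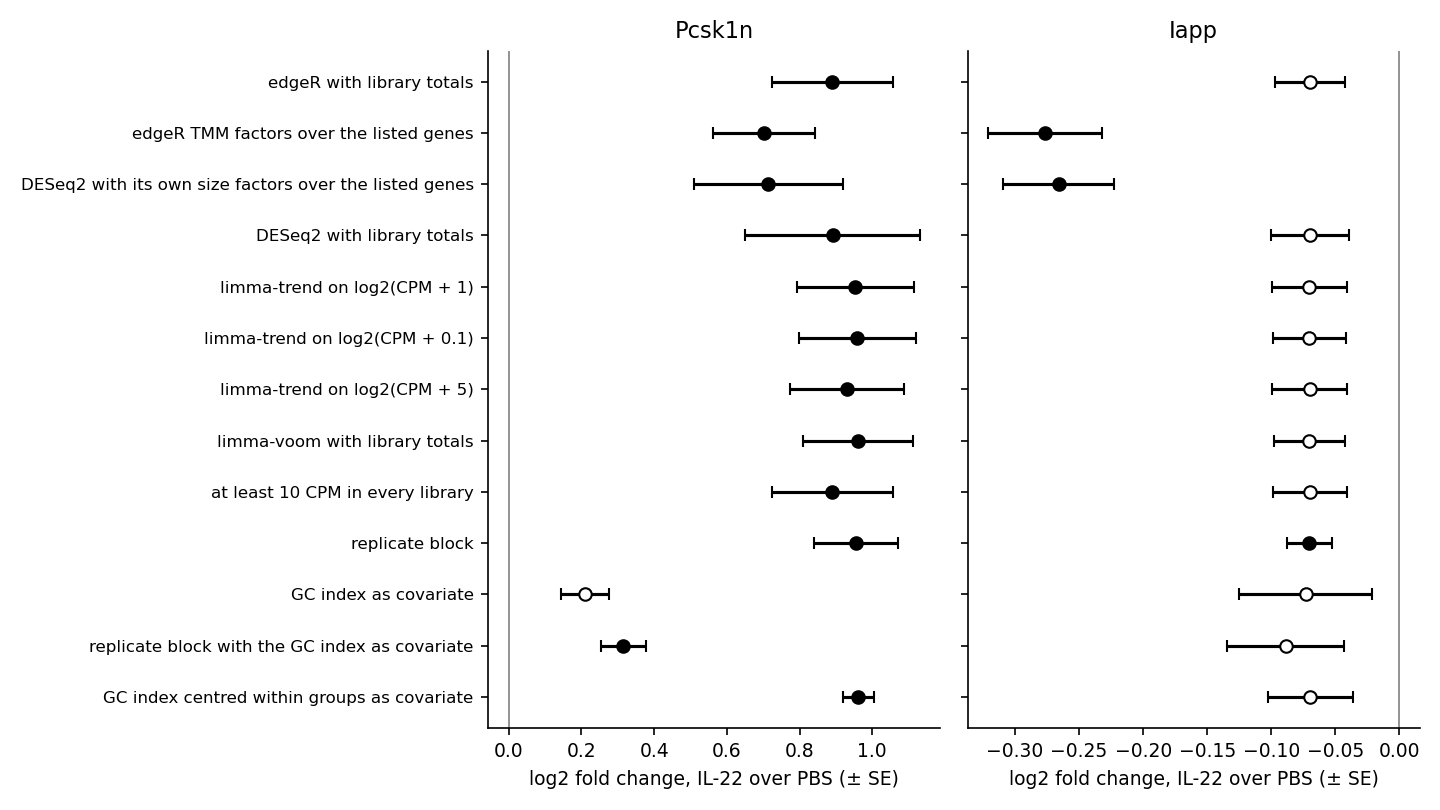
Log2 fold change ± SE of Pcsk1n (left) and Iapp (right) under each fit, with filled points for adjusted p under 0.01 and different horizontal scales in the 2 panels. Pcsk1n lies between 0.70 and 0.96 except with the GC index as covariate, at 0.21, or 0.32 with the replicate number as well, and Iapp lies near -0.07 except at -0.28 and -0.27 where scaling factors came from the listed genes and at -0.09 with the replicate number and the GC index.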

How the data were processed

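Gene expression was measured by stranded mRNA sequencing of MIN6N8 cells (mm10, per the labels); the aligner and the counting program are not given in the sources used here. The authors deposited raw counts (unnormalized whole reads per gene) for 230 genes in 10 libraries. The authors also deposited CPM values, the count per 1000000 counted reads, which equalled count over total within 0.001 in 99.7% of values. The deposited table further holds the authors' own log2 fold change, mean expression, p-value and FDR, which were not used, except that each FDR was checked to be under 0.05.

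Groups and numbers came from the sample labels. Library totals were the sum of counts over the sum of CPM. Counts of genes with at least 1 CPM in 5 libraries (all 230) were tested with edgeR 4.0.16 (quasi-likelihood, R 4.3.3) with library totals, no scaling factors, Benjamini-Hochberg adjustment over 230 genes and a threshold of 0.01. The estimated dispersion, taken over these selected genes, was 0.0335 for Pcsk1n and 0.0017 for Iapp, against a common value of 0.0041. The procedure was tested on simulated data. Exact permutation tests of log2(CPM + 1) used scipy 1.17.1. Alternatives were limma 3.58.1 (trend and voom; pseudocounts 0.1, 1 and 5), DESeq2 1.42.0, TMM factors, at least 10 CPM, no filter, a threshold of 0.05, the replicate number as a block, the GC index, 21951 tests and each library left out. The index centred within groups was added after seeing the data.

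Transcript GC, gene models and coding sequences came from GENCODE M21 on GRCm38, in which all 230 genes were found, 220 by the same symbol. Near-identical sequence was sought with blastn 2.17.0 (97% identity over 100 nt). The members and lists were chosen with earlier results of these data known. Named genes are the members, the list genes in the table and the 5 most correlated with each member; Dlk1 was named after its values were seen.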

Additional observations from a re-analysis of the deposited data

Results flagged for a closer look

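Among the members and list genes, the level of 1 gene in 1 library stood apart from its group. Socs3, a feedback inhibitor of STAT3 signalling, was measured at 12.8 CPM in PBS 2, whereas the other PBS libraries lay between 15.6 and 16.0 CPM, so that the gap to the nearest took 0.884 of the range of the group. Of the 32 groups of 5 libraries examined in this way 1 held such a library, where chance would give about 1.6. Neither Pcsk1n nor Iapp had one.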

How the results depend on the processing

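Pcsk1n was higher under every alternative run, and the call was lost under 2, the GC index (0.21, adjusted p = 0.0261) and 21951 tests (0.89, adjusted p = 0.0559). Leaving out each library gave 0.78 to 1.12 (0.83 to 1.13 for mean log2 CPM). Iapp was lower under every alternative and passed the threshold with TMM factors (-0.28), DESeq2's own size factors (-0.27), the replicate block described below (-0.0701) and, at -0.0696, a threshold of 0.05. Leaving out each library gave -0.0845 to -0.0512, with adjusted p from 0.00896, without IL-22 1, to 0.0625. Its mean log2 CPM difference ran from -0.0853 to -0.0514 (exact permutation p 0.0159 to 0.111), with p under 0.05 without PBS 2, IL-22 1 or IL-22 3.

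The replicate numbers were not shown to pair the libraries: deviations of same-numbered libraries correlated at 0.257, 0.287, 0.256, 0.0044 and -0.144, and under a replicate block Pcsk1n gave 0.95 (adjusted p = 9.0e-05) and Iapp -0.0701 (adjusted p = 0.0038). With the block and the GC index Pcsk1n gave 0.32 (adjusted p = 0.0014) and Iapp -0.09 (adjusted p = 0.178). The log2 ratio of Pcsk1n to Iapp stayed at 1.03 under sign flips within numbers, with p = 0.0625, the smallest that 5 allow (exact), and ran from 0.90 to 1.21 without each library.

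Of the 230 genes, 187 were called higher and 31 lower. Higher calls numbered 18 with TMM, 30 with DESeq2's own size factors, 19 with the GC index, 23 with the index and block and 7 over 21951 tests, and 127 to 196 without each library. Lower calls numbered 0 with the index, with the index and block and over 21951 tests, and 15 to 32 without each library. The cause of these shifts was not tested.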
